A study of Arabidopsis thaliana with 40 samples.

Results

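The ethanol effect in frozen plants was measured by setting the 8 libraries of Arabidopsis thaliana shoots that were frozen after 6 days on ethanol against the 8 libraries of shoots frozen after 6 days on water. These 16 libraries are those whose sample titles name a pretreatment and freezing, out of 40 libraries in 5 groups of 8. Arabidopsis thaliana, the thale cress, grew in pots of granular soil at 22 °C under 16 h of light and 8 h of darkness, and the pretreatment began at an age of 14 days. Pots then stood for 6 days with their bottoms in 20 mM ethanol, or had a water pretreatment of the same length. Pots of both frozen groups were kept overnight at -4 °C in a rotating incubator and were returned to the growth room. Plants of both frozen groups therefore share the age, the 6 days of pretreatment and the freezing night, and differ by the labels only in ethanol. The labels give a time of 2 h for both frozen groups, and no source used here says from which event it was counted. The unfrozen ethanol and water plants, 8 libraries each, gave the ethanol effect before freezing, and 8 libraries of plants sampled before the pretreatment entered the fit. Neither genotype nor hour of harvest is given in the labels. Separate plants are not stated for the replicates, so the p-values cover the spread of these libraries, which may be technical. Of 27416 genes counted, 16579 had enough counts to be tested. In whole shoots, fewer cells of a type and less RNA per cell cannot be told apart.

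Freezing damages plant cells through ice and dehydration, and plants that have met cold raise their tolerance by cold acclimation, in which CBF transcription factors switch on COR genes that encode protective proteins. Sugars, raffinose and anthocyanins, the red flavonoid pigments, also build up in the cold. Ethanol taken up by a plant is oxidised to acetaldehyde and acetate, which acetyl-CoA synthetase feeds into central metabolism.

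The 16 frozen libraries were made from 200 ng of total RNA by the multiplexed protocol Lasy-Seq and held 2455925 to 6022404 counts after water and 4560874 to 9211896 after ethanol (exact two-sided permutation test p = 0.0127, adjusted over 9 library properties p = 0.0846). A floor of 3 counts was worth 0.498 to 1.22 CPM (counts relative to the library total; gene levels are also TMM-scaled) after water and 0.326 to 0.658 CPM after ethanol. The summed level of the photosystem and antenna genes, which mark green shoot tissue, was 130700 ± 9270 CPM after water and 127700 ± 8620 CPM after ethanol (SD, n = 8). Among 7 root markers, 2 passed the count filter. Summed over the 8 libraries of a group, PYK10 had 1248 counts after water and 1782 after ethanol, and SCR had 355 and 407. COBL9 had a count of 0 after water and PRP3 had a count of 0 after ethanol. The summed level of the 4 phloem markers ranged from 205.5 to 269.5 CPM after water and from 223.4 to 291.5 CPM after ethanol (exact permutation adjusted p = 0.0894). Sums of root, guard cell and epidermis markers had adjusted p of 0.663 to 0.981 in the same test. Frozen water replicate 6 and frozen ethanol replicate 8 held the highest levels of salicylate defence genes of their groups, and frozen ethanol replicates 2 and 3 held the highest levels of COR15A and CBF2; results that rest on these libraries are given with and without them.

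Ethanol-pretreated frozen shoots had higher transcripts of anthocyanin enzymes, sucrose exporters, COR27, AT4G33980 and the cytokinin phosphotransmitter AHP4. They had lower transcripts of nitrate reductases and nitrite reductase, 8 of 9 listed CC-type glutaredoxins, 6 of 17 tested immune genes and several type-A cytokinin response regulators. Another type-A regulator, ARR16, was higher. By edgeR's quasi-likelihood test at an adjusted p under 0.05, 870 of 16579 genes were called, which is 5.25%. Higher after ethanol were 400 genes (2.41%) and lower 470 genes (2.83%). Total counts ranged higher in the frozen ethanol libraries, and with every library thinned to the total of the smallest, 159 genes were higher and 197 lower. At a fold change of at least 2, 65 genes were higher and 83 lower, and the median absolute log2 fold change of the called genes was 0.48. The median over all genes tested was -0.01. Levels of the 2 groups did not overlap for 46 higher genes (0.277%) and 62 lower genes (0.374%). Leaving out frozen ethanol replicate 2 or replicate 6 lowered the count of lower genes to 282 in each case.

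**Figure D1:**
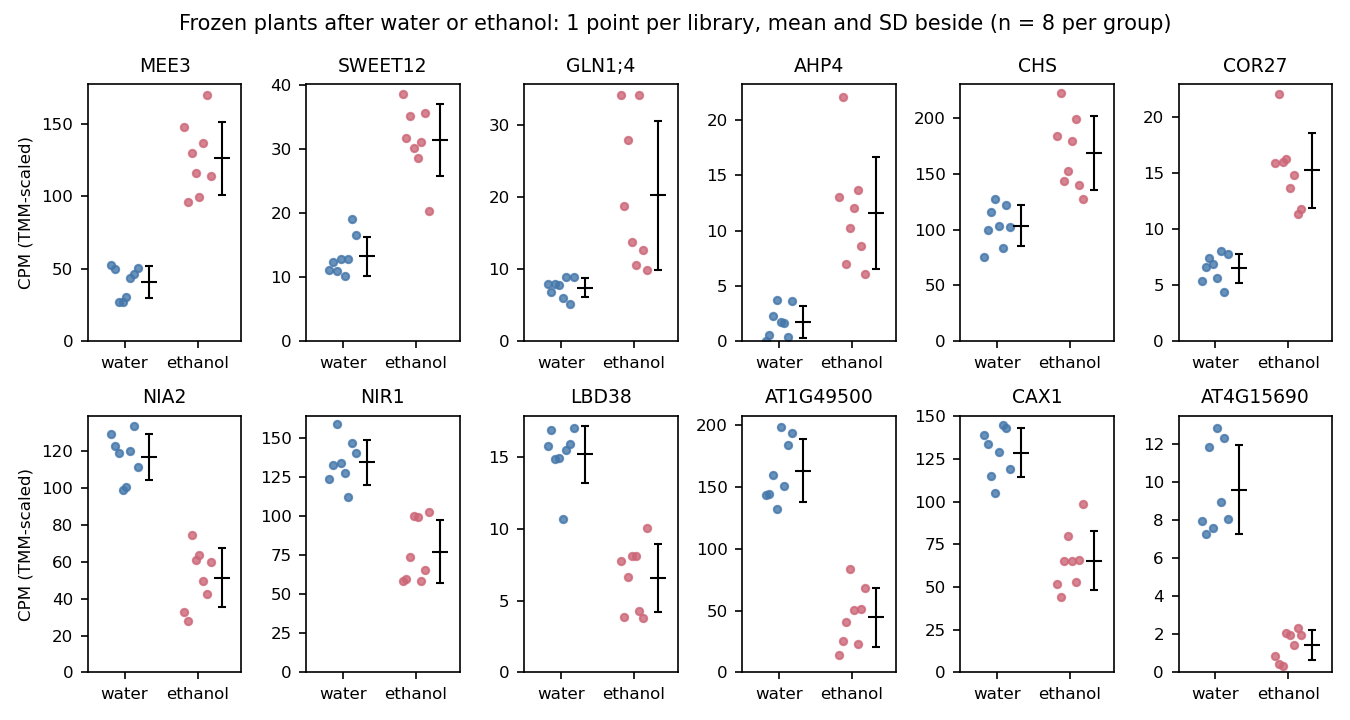
Levels in CPM (linear axis from 0) of 12 genes in the 8 frozen water libraries and the 8 frozen ethanol libraries, 1 point per library, with the mean and SD beside them. The upper 6 genes were higher and the lower 6 genes lower after ethanol, and the groups do not overlap in any of the 12 panels.

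The 12 highest fold changes of called genes whose higher group averaged 10 CPM or more were led by a plastocyanin-like protein gene, AT4G01380. AT4G01380 had a lowest, median and highest level of 0.615, 1.23 and 3.39 CPM in frozen water plants and of 2.56, 11.6 and 25.1 CPM in frozen ethanol plants. The ethanol libraries lay, in 7 of 8 cases, above every water library, and the lowest, replicate 8, lay inside the water range (log2 fold change 2.83 ± 0.38 (SE), adjusted p = 5.14e-07). AHP4 passes phosphate from cytokinin receptors toward response regulators. For AHP4 the lowest, median and highest levels were 0, 1.65 and 3.68 CPM after water and 6.104, 11.1 and 22.1 CPM after ethanol, without overlap (log2 fold change 2.71 ± 0.35 (SE), adjusted p = 3.70e-07). AT1G64360, which encodes an uncharacterized protein, rose from 21.9 ± 5.51 CPM after water to 98.1 ± 47.2 CPM after ethanol (SD, n = 8), again without overlap (log2 fold change 2.15 ± 0.19 (SE), adjusted p = 4.62e-11). MEE3 had a lowest, median and highest level of 26.97, 44.9 and 52.2 CPM in frozen water plants and of 95.9, 123.0 and 170.3 CPM in frozen ethanol plants. The groups were far apart for MEE3, a homeodomain-like gene (log2 fold change 1.62 ± 0.16, adjusted p = 2.79e-10), and its relative RL4 rose as well (log2 fold change 0.81 ± 0.09 (SE), adjusted p = 1.69e-09). GLN1;4 encodes a cytosolic glutamine synthetase, which fixes ammonium. GLN1;4 stood at 5.17, 7.88 and 8.96 CPM (lowest, median, highest) after water and at 9.85, 16.3 and 34.2 CPM after ethanol, and every ethanol library exceeded every water library (log2 fold change 1.44 ± 0.22, adjusted p = 9.49e-06). Other genes of the 12 were the glutaredoxin family gene AT2G47880 (1.95 ± 0.25, adjusted p = 1.78e-07), the thioredoxin superfamily gene AT4G33040 (1.49 ± 0.22, adjusted p = 7.66e-06), the sugar transporter gene SWEET13 (1.78 ± 0.32, adjusted p = 1.85e-04) and AT1G70640, a PB1 domain gene (1.57 ± 0.31, adjusted p = 8.47e-04). These 4 overlapped between the groups, with 5 to 7 ethanol libraries above the highest water library. DFR, GOLS2 and CBF2 complete the 12 and are described with their pathways. Among abundant transcripts, the metallothionein gene MT3 rose from 1718 ± 112 CPM after water to 3110 ± 699.4 CPM after ethanol (log2 fold change 0.86 ± 0.08 (SE), adjusted p = 1.08e-10) and MT2A from 566.6 ± 70.7 CPM after water to 839.3 ± 172.7 CPM after ethanol (log2 fold change 0.57 ± 0.09 (SE), adjusted p = 1.20e-05). MT3 separated the groups completely, and MT2A in 6 of 8 ethanol libraries.

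The 12 lowest fold changes held defence genes and a few genes of other kinds. AT1G49500 is annotated as a TFIID subunit gene. For AT1G49500 the lowest, median and highest levels were 132.6, 155.2 and 198.4 CPM after water and 13.7, 45.7 and 83.7 CPM after ethanol. The groups did not overlap (log2 fold change -1.88 ± 0.21 (SE), adjusted p = 9.85e-09), as for AT1G68238, which encodes an uncharacterized protein (-1.65 ± 0.20, adjusted p = 4.16e-08). CAX1, a vacuolar exchanger of calcium for protons, and PPC2, a phosphoenolpyruvate carboxylase, were chosen after their values were seen. CAX1 stood at 105.4, 131.5 and 145.2 CPM (lowest, median, highest) after water and at 44.3, 65.1 and 98.7 CPM after ethanol, a log2 fold change of -0.98 ± 0.11, adjusted p = 5.37e-09. PPC2 fell from 174.0 ± 18.7 CPM after water to 110.9 ± 15.6 CPM after ethanol (log2 fold change -0.65 ± 0.08, adjusted p = 1.14e-07). Neither overlapped between the groups. The other 10 of the 12 lowest, among them TAT3, PAD3, PR1 and PCC1, overlapped between the groups and are given below with the immune genes.

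Flavonoid and anthocyanin synthesis was the list with the most called genes in the higher direction. Of 18 members, 16 were tested, 11 rose (2.41% of all genes did) and none fell, and the median log2 fold change was 0.92 against -0.01 over all genes. Chalcone synthase, CHS, makes the chalcone skeleton of all flavonoids. For CHS the lowest, median and highest levels were 75.8, 102.5 and 127.7 CPM after water and 128.0, 166.3 and 223.1 CPM after ethanol, with no overlap (log2 fold change 0.71 ± 0.11 (SE), adjusted p = 2.68e-05). The steps that follow toward dihydroflavonols rose as well, with CHI at 0.42 ± 0.12, adjusted p = 0.03, F3H at 0.76 ± 0.17, adjusted p = 0.00342 and TT7, the flavonoid 3'-hydroxylase, at 1.31 ± 0.32, adjusted p = 0.00806. FLS1, which turns dihydroflavonols into flavonols, rose with a log2 fold change of 0.55 ± 0.13, adjusted p = 0.00675. The anthocyanin branch begins with dihydroflavonol reductase, DFR. DFR stood at 1.84, 7.02 and 12.6 CPM (lowest, median, highest) after water and at 4.53, 16.1 and 44.7 CPM after ethanol. Water replicate 1 was lowest and ethanol replicate 2 highest, and 5 of 8 ethanol libraries lay above all water libraries (log2 fold change 1.52 ± 0.29, adjusted p = 5.36e-04). LDOX, which follows DFR, rose with a log2 fold change of 1.11 ± 0.24, adjusted p = 0.00237. The glutathione S-transferase TT19, needed to bring anthocyanins to the vacuole, had 9.61 ± 5.01 CPM after water and 24.8 ± 12.9 CPM after ethanol (log2 fold change 1.41 ± 0.27, adjusted p = 4.93e-04). Both glycosyltransferase genes of the list rose, AT4G14090 without overlap (1.27 ± 0.23, adjusted p = 2.42e-04) and UF3GT with overlap (1.71 ± 0.51, adjusted p = 0.0374). PAP1, a MYB activator of anthocyanin genes, rose with a log2 fold change of 1.09 ± 0.30, adjusted p = 0.0202. Its relative PAP2, at a mean of 0.481 CPM after water and 1.55 CPM after ethanol, did not pass the test (log2 fold change 1.71, adjusted p = 0.0901). PAL1 and C4H of general phenylpropanoid synthesis had -0.16 and -0.08, MYB111 had 0.18 and MYBL2, a repressor, had -0.21, and none of these 4 passed. The members TT8 and MYB12 had too few counts. Leaving out 1 frozen library at a time left 8 to 12 members higher, with the lowest count without ethanol replicate 6. The calls of CHI, PAP1 and UF3GT ended without 5, 3 and 9 of the 16 libraries respectively (adjusted p up to 0.0699, 0.0684 and 0.12).

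Sequence upstream of these genes is shown for the G-box, CACGTG, a motif bound by bZIP and bHLH factors that is known from light- and flavonoid-regulated promoters. Of the 11 flavonoid genes that rose, 4 held it in the 250 bases before the annotated start (36.4%), against 7.37% of 16416 promoters of tested genes. They are F3H, CHS, DFR and UF3GT, and 3 of them are printed, from RefSeq TAIR10.1, 5′ to 3′ on the gene's strand, with the G-box in capitals. F3H is not printed because its window overlaps the annotated gene AT3G51238. The motif reads the same on both strands and overlaps no other motif searched. The windows are chr5:17166033-17166282, minus strand for DFR, chr5:4488226-4488475, plus strand for CHS and chr5:21938397-21938646, minus strand for UF3GT. Other motifs were searched in the same 11 promoters, namely TTGAC (54.5%), TGACG (18.2%), CCGAC (9.09%), AAAATATCT (9.09%) and GAATC (0%). Over all tested promoters these shares were 44.2%, 19.4%, 13.3%, 2.63% and 38.9%. A match describes the letters of the window only.
DFR: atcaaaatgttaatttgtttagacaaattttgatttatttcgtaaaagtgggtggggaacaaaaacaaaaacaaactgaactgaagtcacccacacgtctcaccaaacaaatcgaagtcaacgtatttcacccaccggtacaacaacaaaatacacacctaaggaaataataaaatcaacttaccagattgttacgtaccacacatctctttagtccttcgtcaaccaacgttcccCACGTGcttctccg
CHS: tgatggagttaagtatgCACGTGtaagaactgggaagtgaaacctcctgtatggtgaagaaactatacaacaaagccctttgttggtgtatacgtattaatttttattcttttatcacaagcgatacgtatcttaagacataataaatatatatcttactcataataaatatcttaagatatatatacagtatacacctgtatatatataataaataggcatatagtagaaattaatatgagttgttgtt
UF3GT: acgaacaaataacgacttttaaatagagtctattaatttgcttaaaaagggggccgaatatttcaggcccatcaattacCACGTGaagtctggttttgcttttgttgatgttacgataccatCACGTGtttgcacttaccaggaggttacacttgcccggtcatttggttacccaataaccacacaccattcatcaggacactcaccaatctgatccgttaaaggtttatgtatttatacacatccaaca
DFR holds the G-box near the annotated start, CHS holds it far from the start, and UF3GT holds it at 2 places.

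Nitrate assimilation genes were lower after ethanol. Of 17 members of the nitrate and ammonium list, 14 were tested, 9 fell (2.83% of all genes did) and 1 rose, with a median log2 fold change of -0.74. NIA1 and NIA2 encode nitrate reductase, which turns nitrate into nitrite. NIA2 had a lowest, median and highest level of 98.8, 119.3 and 133.7 CPM in frozen water plants and of 27.9, 54.5 and 74.5 CPM in frozen ethanol plants. No library of one group reached the range of the other (log2 fold change -1.18 ± 0.15 (SE), adjusted p = 1.51e-07). For NIA1 the lowest, median and highest levels were 17.9, 22.7 and 37.9 CPM after water and 9.63, 13.01 and 15.8 CPM after ethanol, also without overlap, and water replicate 3 was the highest (log2 fold change -0.90 ± 0.13 (SE), adjusted p = 6.17e-06). NIR1, nitrite reductase, carries the next step, and UPM1 makes its siroheme cofactor. NIR1 stood at 112.4, 133.8 and 159.3 CPM (lowest, median, highest) after water and at 58.6, 69.6 and 102.6 CPM after ethanol, apart in all libraries (log2 fold change -0.80 ± 0.13, adjusted p = 1.83e-05). UPM1 fell with a log2 fold change of -0.75 ± 0.15, adjusted p = 7.93e-04. Lower as well were 3 LOB domain repressors that nitrate induces and that are known to repress nitrogen and anthocyanin genes: LBD38 from 15.2 ± 1.99 CPM after water to 6.58 ± 2.34 CPM after ethanol (-1.22 ± 0.21, adjusted p = 8.13e-05), LBD37 (-0.74 ± 0.13, adjusted p = 2.26e-04) and LBD39 (-1.04 ± 0.27, adjusted p = 0.0147). The myb-like gene AT1G68670 fell without overlap (-0.74 ± 0.12, adjusted p = 3.18e-05), and GLU1, ferredoxin-dependent glutamate synthase, fell from 273.2 ± 27.8 CPM after water to 225.4 ± 17.9 CPM after ethanol (-0.28 ± 0.07, adjusted p = 0.00646). AMT1;2, which takes up ammonium, was the member that rose (0.82 ± 0.19, adjusted p = 0.00551). The nitrate transporter gene NRT1.1 had 0.28 (adjusted p = 0.0781), and CIPK23, G6PD3 and AMT1;1 lay between -0.18 and -0.06 without passing. Leaving out 1 library left 8 or 9 members lower, with LBD39 lost without water replicate 2 (adjusted p = 0.0536).

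CC-type glutaredoxins are small plant-specific oxidoreductases that bind TGA transcription factors, and several are induced by nitrate. All 9 listed genes were tested and 8 fell (2.83% of all genes did), with a median log2 fold change of -1.85. The list was chosen and does not hold every glutaredoxin gene. Outside it, AT2G47880 and AT4G33040, annotated with the same protein families as listed members, rose (log2 fold change 1.95 and 1.49). AT4G15690 had a lowest, median and highest level of 7.27, 8.52 and 12.9 CPM in frozen water plants and of 0.311, 1.698 and 2.33 CPM in frozen ethanol plants, and the groups were fully separate (log2 fold change -2.78 ± 0.28 (SE), adjusted p = 4.66e-10). Its neighbours on chromosome 4 fell too, AT4G15670 at -2.44 ± 0.47, adjusted p = 5.47e-04, AT4G15700 at -1.78 ± 0.39, adjusted p = 0.00237 and AT4G15680 at -1.85 ± 0.52, adjusted p = 0.0231. For AT4G15660 the lowest, median and highest levels were 1.86, 3.16 and 9.55 CPM after water and 0, 0.0707 and 1.399 CPM after ethanol, where ethanol replicate 4 held the only level above 0.197 CPM (log2 fold change -3.98 ± 0.51 (SE), adjusted p = 2.43e-07). The longest transcripts of these 5 neighbours are 76.9% to 85.4% identical, so counts could be shared among them and the value of each is uncertain. AT3G62950, elsewhere in the genome, stood at 20.2 ± 2.15 CPM after water and 9.87 ± 3.09 CPM after ethanol without overlap (log2 fold change -1.03 ± 0.19, adjusted p = 2.11e-04), and AT5G18600 fell less (-0.26 ± 0.07, adjusted p = 0.0103). GRX480, which salicylate induces, had 0.245, 4.79 and 13.9 CPM after water, with water replicates 3 and 4 lowest, and no count in 6 of 8 ethanol libraries (highest 0.699 CPM, adjusted p = 5.12e-04); its fitted log2 fold change of -4.94 depends on the prior count. AT1G06830 had -0.27 (adjusted p = 0.423). AT4G15680 lost its call without water replicate 4, water replicate 7 or ethanol replicate 2 (adjusted p up to 0.118).

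Cytokinin signalling members moved in both directions. Of 13 tested, AHP4 and the type-A response regulator ARR16 rose (2.41% of all genes did). Another 4 type-A response regulators fell (2.83% of all genes did), and the median log2 fold change was -0.02. Type-A regulators are induced by cytokinin and damp its signal. ARR4 fell from 102.0 ± 10.2 CPM after water to 75.6 ± 12.5 CPM after ethanol (SD, n = 8), with 7 of 8 ethanol libraries below all water libraries (log2 fold change -0.43 ± 0.08 (SE), adjusted p = 4.01e-04). ARR6 fell with a log2 fold change of -0.65 ± 0.17, adjusted p = 0.0155, ARR5 at -0.62 ± 0.19, adjusted p = 0.039 and ARR9 at -0.39 ± 0.12, adjusted p = 0.0329. ARR16 rose from 17.5 ± 2.56 CPM after water to 26.4 ± 5.35 CPM after ethanol without overlap (0.60 ± 0.16, adjusted p = 0.0141). AHP1, AHP2, AHP3 and AHP5 lay between -0.02 and 0.17 and did not pass, as did ARR7 (-0.32), ARR8 (0.03) and ARR15 (-0.30). The count of regulators that fell was 1 to 5 when 1 library was left out, lowest without water replicate 2 or ethanol replicate 6, and ARR5 and ARR9 each lost the call without 11 of the 16 libraries (adjusted p up to 0.115 and 0.103).

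**Figure D2:**
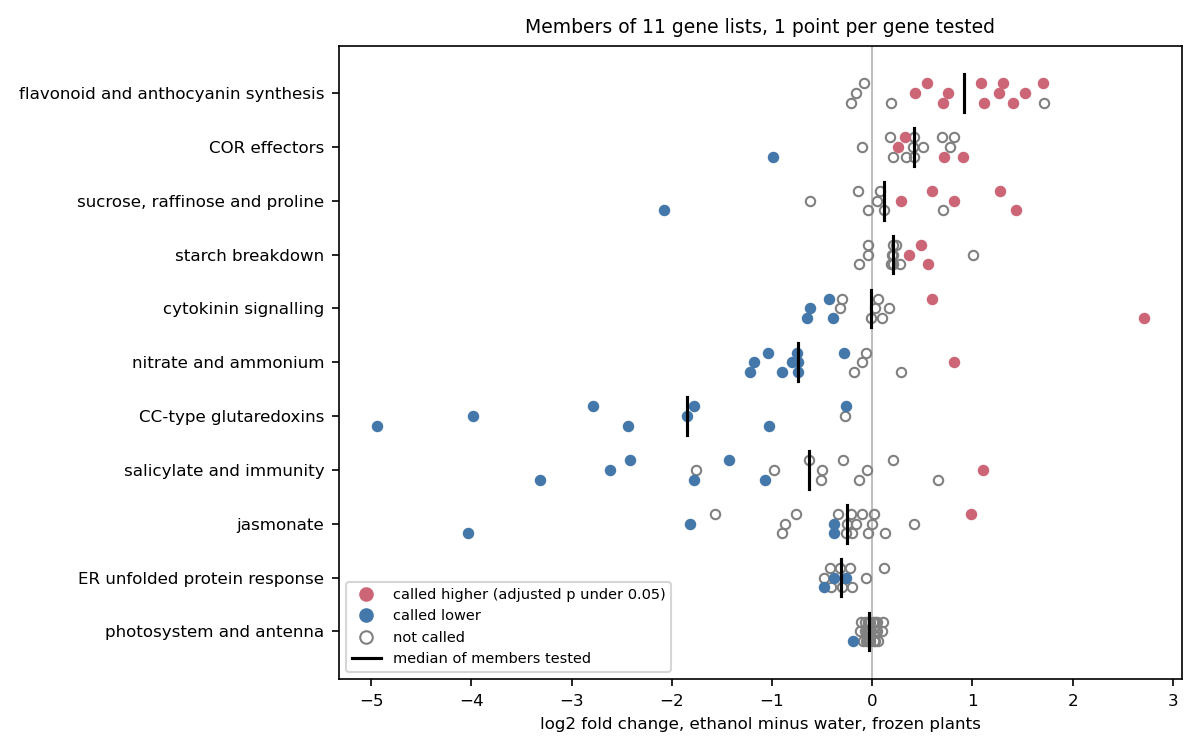
Log2 fold changes of ethanol against water in frozen plants for the tested members of 11 gene lists, 1 point per gene, filled where the adjusted p was under 0.05, with a bar at the median of the members tested. Flavonoid genes lie mostly to the right of 0, nitrate genes and CC-type glutaredoxins to the left, and the 27 photosystem genes close to 0.

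Of 19 members of the salicylate and immunity list, 17 were tested, 6 fell (2.83% of all genes did) and 1 rose (2.41%), with a median log2 fold change of -0.64. PAD3 encodes the cytochrome P450 that completes camalexin, an antimicrobial compound. PAD3 had a lowest, median and highest level of 0.742, 14.6 and 23.99 CPM in frozen water plants and of 0.143, 0.698 and 2.95 CPM in frozen ethanol plants. Water replicates 3 and 4 held the lowest water values, inside the ethanol range, and the other water libraries lay above all ethanol libraries (log2 fold change -3.32 ± 0.68 (SE), adjusted p = 0.00109). PR1 and PR2, the latter a beta-1,3-glucanase, are markers of salicylate defence. For PR1 the lowest, median and highest levels were 2.72, 33.2 and 160.1 CPM after water and 1.73, 4.66 and 30.5 CPM after ethanol, highest in water replicate 6 and in ethanol replicate 8 (log2 fold change -2.61 ± 0.81 (SE), adjusted p = 0.0431). PR2 had the same highest libraries, with 4.21, 27.1 and 112.1 CPM after water and 1.29, 5.13 and 17.5 CPM after ethanol (log2 fold change -2.41 ± 0.70, adjusted p = 0.0298). SARD1, a calmodulin-binding-like activator of salicylate synthesis genes, fell with a log2 fold change of -1.78 ± 0.40, adjusted p = 0.00317, WRKY54 at -1.43 ± 0.35, adjusted p = 0.00864 and WRKY70 at -1.07 ± 0.27, adjusted p = 0.0102. The isochorismate synthase gene ICS1 had -0.50 (adjusted p = 0.335) and EDS5 had -0.98 (adjusted p = 0.0721). AZI1, a lipid transfer protein gene of systemic resistance, rose in 7 of 8 ethanol libraries above the water range (from 4.45 ± 1.79 CPM after water to 9.92 ± 2.11 CPM after ethanol, adjusted p = 2.50e-04). Without water replicate 6, 3 members fell rather than 6, and the calls of PR1 (adjusted p = 0.176), PR2 (0.156) and WRKY54 (0.0582) ended. PR1 lost its call without any 1 of 12 of the 16 libraries and PR2 without any 1 of 5.

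Outside the list, other genes among the 12 lowest followed the same libraries. PCC1, pathogen and circadian controlled 1, had 64.3, 420.2 and 1598 CPM after water and 57.6, 117.5 and 507.8 CPM after ethanol, highest in water replicate 6 and ethanol replicate 8 (log2 fold change -1.86 ± 0.48, adjusted p = 0.0133). AT3G22235, a cysteine-rich transmembrane module gene, fell with a log2 fold change of -1.76 ± 0.43, adjusted p = 0.00827. The lectin gene AT5G03350 fell with a log2 fold change of -1.72 ± 0.41, adjusted p = 0.00683, AT2G18690 at -1.65 ± 0.42, adjusted p = 0.0104 and ARD3, acireductone dioxygenase of methionine salvage, at -1.73 ± 0.49, adjusted p = 0.0252. Without water replicate 6, PCC1 had an adjusted p of 0.0668 and ARD3 one of 0.134, and ARD3 also lost its call without ethanol replicate 1, 2 or 3. SAG21, an abundant stress and senescence transcript, fell with a log2 fold change of -1.65 ± 0.42, adjusted p = 0.011 and lost its call without water replicate 6 (0.0584).

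The jasmonate list had 21 tested members, of which 4 fell (2.83% of all genes did) and 1 rose (2.41%). TAT3, a jasmonate-induced tyrosine aminotransferase, had the lowest fold change of the 12. TAT3 had a lowest, median and highest level of 0, 44.98 and 76.9 CPM in frozen water plants and of 0.714, 1.701 and 5.74 CPM in frozen ethanol plants. Water replicates 3 and 4 were at 0 and 0.98 CPM, water replicate 2 at 6.76 CPM, and the other 5 at 42.9 CPM or more (log2 fold change -4.03 ± 0.79 (SE), adjusted p = 6.86e-04). JAZ5, a repressor of jasmonate responses, fell with a log2 fold change of -1.81 (adjusted p = 0.0228). AOS and LOX2 of jasmonate synthesis were lower, at -0.39 and -0.38 (adjusted p = 0.0197 and 0.0462), and AOS lost its call without water replicate 4, ethanol replicate 2 or ethanol replicate 8. Without water replicate 5, ethanol replicate 2 or ethanol replicate 8, 2 members of the list fell. VSP2, a vegetative storage protein, rose with a log2 fold change of 0.99 ± 0.27, adjusted p = 0.0175, was highest among water libraries in replicate 3 and was lost without water replicate 1 (0.0527). Of 10 early-response genes of touch, calcium and WRKY type, WRKY40 and TCH3 fell. WRKY40 stood at 0, 6.82 and 12.02 CPM (lowest, median, highest) after water and at 0.285, 0.999 and 1.89 CPM after ethanol, with water replicates 3 and 4 again lowest (log2 fold change -2.48 ± 0.58, adjusted p = 0.00562). TCH3, a calmodulin-like protein, fell with a log2 fold change of -0.96 ± 0.29, adjusted p = 0.0421 and was lost without any 1 of 13 libraries (0.155).

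**Figure D3:**
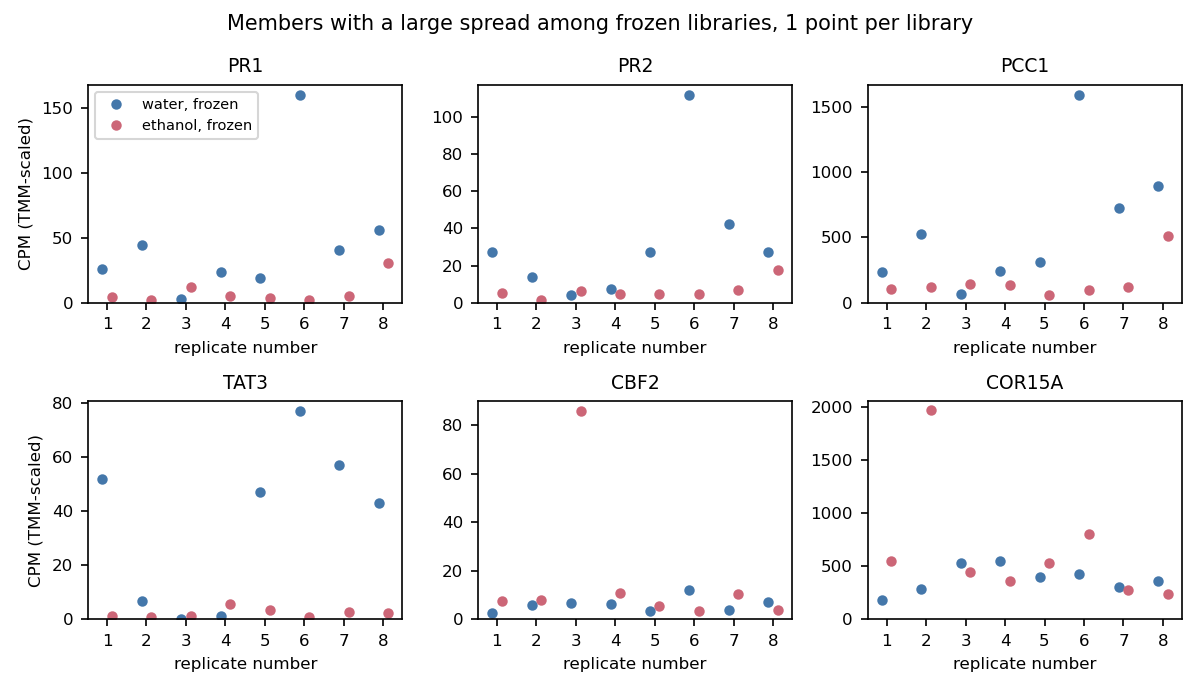
Levels in CPM (linear axis from 0) of 6 genes in each frozen library, by replicate number within its group; equal numbers do not pair libraries. PR1, PR2 and PCC1 peak in water replicate 6, TAT3 is near 0 in water replicates 3 and 4, CBF2 stands at 85.9 CPM in ethanol replicate 3 and COR15A at 1968 CPM in ethanol replicate 2.

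Of the cold pathway, 2 of 9 tested transcription factor genes rose (2.41% of all genes did) and none fell. CBF3 is 1 of 3 neighbouring CBF genes that activate the COR genes. CBF3 had a lowest, median and highest level of 7.99, 15.1 and 23.4 CPM in frozen water plants and of 11.03, 27.2 and 75.7 CPM in frozen ethanol plants, and 6 of 8 ethanol libraries exceeded all water libraries (log2 fold change 1.12 ± 0.24 (SE), adjusted p = 0.00223). For CBF2 the lowest, median and highest levels were 2.66, 5.94 and 12.2 CPM after water and 3.42, 7.77 and 85.9 CPM after ethanol. The call of CBF2 (1.51 ± 0.45, adjusted p = 0.0341) rested on ethanol replicate 3, without which the log2 fold change was 0.23 (adjusted p = 0.84), and it also ended without water replicate 1, 2, 5 or 7. CBF1 had 1.49 ± 0.48, adjusted p = 0.0579. It passed without water replicate 6 or ethanol replicate 2, 4, 5, 6 or 8, and stood at 0.25 without ethanol replicate 3. ZAT12 had 0.52 (adjusted p = 0.713). Of 16 COR effectors, all tested, 4 rose (2.41% of all genes did) and 1 fell (2.83%), with a median log2 fold change of 0.41. The dehydrin gene XERO2 rose from 18.4 ± 9.57 CPM after water to 34.4 ± 12.98 CPM after ethanol (log2 fold change 0.90 ± 0.22 (SE), adjusted p = 0.00667). COR15A, a chloroplast stroma protein that protects membranes, had 184.2, 377.2 and 543.8 CPM after water and 234.9, 489.7 and 1968 CPM after ethanol, with ethanol replicate 2 far above the rest (log2 fold change 0.77 ± 0.29 (SE), adjusted p = 0.112), and stood at 0.28 without that library. Its copy COR15B, whose counts may be shared with it, rose with a log2 fold change of 0.72 ± 0.21, adjusted p = 0.034, and without ethanol replicate 2 stood at 0.41 (adjusted p = 0.263); it was lost without any 1 of 8 libraries. RD29A had 0.51 ± 0.23, adjusted p = 0.216, and KIN1 and GOLS3 had 0.69 and 0.82 without passing. RCI2B, a small membrane protein, was the member that fell. RCI2B stood at 10.99, 12.9 and 16.3 CPM (lowest, median, highest) after water and at 4.74, 6.18 and 8.41 CPM after ethanol, without overlap (log2 fold change -0.99 ± 0.19, adjusted p = 3.95e-04). Without ethanol replicate 8, 10 effectors were called higher, among them COR15A, and without ethanol replicate 2 there were 2.

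The RNA-binding proteins GRP7 and GRP8 and COR27 are cold-induced and follow the circadian clock. GRP8 had a lowest, median and highest level of 576.5, 617.5 and 673.2 CPM in frozen water plants and of 711.0, 774.1 and 862.2 CPM in frozen ethanol plants, a small rise with no overlap (log2 fold change 0.33 ± 0.05 (SE), adjusted p = 1.76e-05). GRP7 stood at 2032, 2141 and 2323 CPM (lowest, median, highest) after water and at 2357, 2584 and 2912 CPM after ethanol, also without overlap (log2 fold change 0.26 ± 0.07, adjusted p = 0.0214), and it lost the call without ethanol replicate 2 (0.0597). For COR27 the lowest, median and highest levels were 4.38, 6.73 and 7.997 CPM after water and 11.3, 15.3 and 21.99 CPM after ethanol, apart in all libraries (log2 fold change 1.21 ± 0.22 (SE), adjusted p = 2.21e-04). AT4G33980 stood at 6.86 ± 2.31 CPM after water and 17.9 ± 3.800 CPM after ethanol, also apart (log2 fold change 1.37 ± 0.20, adjusted p = 4.93e-06). The evening element, AAAATATCT, is a clock motif known from promoters of evening and cold-induced genes. It was found, on either strand, in the 250 bases before the start of 29 of 394 genes called higher (7.36%), of 7 of 467 called lower (1.5%) and of 2.63% of 16416 promoters of tested genes. For the other motifs searched, shares among genes called higher were 9.64% (CACGTG), 40.6% (TTGAC), 14% (CCGAC), 20.8% (TGACG) and 38.1% (GAATC). Over all tested promoters they were 7.37%, 44.2%, 13.3%, 19.4% and 38.9%. Among the 29 were GRP7, GRP8, COR27, FLS1, MT2A, CAT3, NYC1 and the debranching enzyme gene ISA3. Windows of 3 of these genes, with 1 to 3 copies, are printed as examples. They are from RefSeq TAIR10.1, 5′ to 3′ on the gene's strand, with the motif or its reverse complement in capitals. They lie at chr2:9266558-9266807, minus strand for GRP7, chr4:18275217-18275466, minus strand for GRP8 and chr4:5783659-5783908, plus strand for ISA3.
GRP7: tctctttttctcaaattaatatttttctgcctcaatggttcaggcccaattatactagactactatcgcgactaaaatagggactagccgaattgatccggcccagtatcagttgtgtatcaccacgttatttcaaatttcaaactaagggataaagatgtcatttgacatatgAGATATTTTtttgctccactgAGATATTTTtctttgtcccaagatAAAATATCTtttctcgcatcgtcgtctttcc
GRP8: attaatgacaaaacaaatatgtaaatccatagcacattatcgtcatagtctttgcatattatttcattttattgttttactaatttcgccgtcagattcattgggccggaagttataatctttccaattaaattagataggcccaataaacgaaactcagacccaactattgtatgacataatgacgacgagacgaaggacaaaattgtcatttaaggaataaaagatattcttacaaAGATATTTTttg
ISA3: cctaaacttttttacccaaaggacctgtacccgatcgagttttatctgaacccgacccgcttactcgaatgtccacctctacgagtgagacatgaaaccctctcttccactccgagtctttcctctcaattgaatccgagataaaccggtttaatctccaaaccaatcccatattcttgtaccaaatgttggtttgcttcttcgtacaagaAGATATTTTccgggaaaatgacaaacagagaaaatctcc
GRP7 holds 3 copies, and GRP8 and ISA3 hold 1 each. A match describes the letters only, and other genes that rose lack it. Of 8 tested evening clock genes, 2 rose (2.41% of all genes did). ELF4, a repressor in the evening complex, rose from 34.6 ± 7.67 CPM after water to 60.4 ± 15.9 CPM after ethanol (0.81 ± 0.14, adjusted p = 6.65e-05). PRR3 rose with a log2 fold change of 0.76 ± 0.23, adjusted p = 0.0381 and was lost without any 1 of 8 libraries (0.109). None of 9 morning clock genes was called by edgeR or DESeq2, and 1 had an unadjusted p under 0.05.

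Of 13 tested genes of sucrose, raffinose and proline, 5 rose (2.41% of all genes did) and 1 fell (2.83%), with a median log2 fold change of 0.12. SWEET11 and SWEET12 release sucrose from leaf cells for loading into the phloem. SWEET12 had a lowest, median and highest level of 10.2, 12.5 and 19.1 CPM in frozen water plants and of 20.3, 31.4 and 38.6 CPM in frozen ethanol plants, with no overlap (log2 fold change 1.27 ± 0.17 (SE), adjusted p = 9.68e-07). For SWEET11 the lowest, median and highest levels were 44.3, 65.8 and 80.4 CPM after water and 84.8, 108.8 and 148.6 CPM after ethanol, also apart (log2 fold change 0.81 ± 0.11 (SE), adjusted p = 5.69e-07). SUC2, which loads sucrose into phloem companion cells, rose with a log2 fold change of 0.29 (adjusted p = 0.00655). The phloem marker PP2-A1 rose with a log2 fold change of 0.28 ± 0.08, adjusted p = 0.0192, and was lost without water replicate 1, ethanol replicate 2 or ethanol replicate 6; whether phloem content has a part in the rise of these transporters was not tested. SPS4F, sucrose phosphate synthase, stood at 25.5 ± 3.21 CPM after water and 38.2 ± 3.89 CPM after ethanol without overlap (log2 fold change 0.59 ± 0.13, adjusted p = 0.00218). GOLS2 makes galactinol for raffinose. GOLS2 stood at 0.8195, 6.199 and 12.3 CPM (lowest, median, highest) after water and at 3.35, 11.3 and 50.2 CPM after ethanol, highest in ethanol replicate 2, and its call (1.44 ± 0.41, adjusted p = 0.0285) ended without water replicate 1, 2 or 8 or ethanol replicate 2 or 6 (0.162). AT5G38710 fell with a log2 fold change of -2.08, at a mean of 2.06 CPM after water and 0.485 CPM after ethanol (adjusted p = 0.041), and was lost without water replicate 1, 5, 6 or 8 or ethanol replicate 1, 2, 3, 4, 5 or 7. P5CS1 and P5CS2 of proline synthesis had -0.04 and -0.14. Of 14 starch breakdown genes, 3 rose (2.41% of all genes did) and none fell: the phosphoglucan phosphatase SEX4 (0.49 ± 0.12, adjusted p = 0.00846), the beta-amylase BAM3 (0.37 ± 0.09, adjusted p = 0.00864) and ISA3 (0.56 ± 0.15, adjusted p = 0.0143, lost without ethanol replicate 2). TPS11 of the dark and sugar starvation list fell with a log2 fold change of -0.55 ± 0.15, adjusted p = 0.0223 and was lost without water replicate 2 or 3 or ethanol replicate 1 or 6, and the other 13 tested members of that list were not called.

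Of 7 tested genes of ethanol and acetate metabolism, 2 rose (2.41% of all genes did) and none fell (2.83%). ADH1, alcohol dehydrogenase, had 4.798, 5.603 and 10.6 CPM after water and 6.504, 10.4 and 13.6 CPM after ethanol, with 4 of 8 ethanol libraries above the water range (log2 fold change 0.64 ± 0.19 (SE), adjusted p = 0.0322). ACN1, an acetyl-CoA synthetase that activates acetate, rose from 18.5 ± 3.54 CPM after water to 24.6 ± 3.12 CPM after ethanol (0.42 ± 0.12, adjusted p = 0.0213). ADH1 lost its call without any 1 of 9 libraries (0.0875) and ACN1 without ethanol replicate 1 (0.065). The aldehyde dehydrogenases ALDH2B4, ALDH2B7 and ALDH2C4 had -0.02, 0.21 and 0.07 and did not pass. Among 10 hypoxia genes, sucrose synthase SUS1 rose (0.59 ± 0.15, adjusted p = 0.00855) and the haemoglobin gene HB1 fell (-0.85 ± 0.26, adjusted p = 0.0411, lost without any 1 of 9 libraries).

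Growth and membrane transport genes included several that fell, where 2.83% of all genes fell and 2.41% rose. Of 12 tested growth genes, EXPA1, an expansin that loosens cell walls, fell from 234.2 ± 40.9 CPM after water to 164.3 ± 32.7 CPM after ethanol (-0.51 ± 0.10, adjusted p = 6.97e-04), and the auxin-induced IAA29 and IAA19 fell with a log2 fold change of -0.77 ± 0.17, adjusted p = 0.00301 and -0.76 ± 0.18, adjusted p = 0.00655. EXPA4 rose with a log2 fold change of 0.38 (adjusted p = 0.0293) and was lost without water replicate 1, 6, 7 or 8 or ethanol replicate 2 or 6. Of 12 plasma membrane aquaporins, which conduct water, 3 fell and none rose. PIP2E had a lowest, median and highest level of 272.1, 314.0 and 353.2 CPM in frozen water plants and of 205.2, 235.2 and 252.4 CPM in frozen ethanol plants, apart in all libraries (log2 fold change -0.42 ± 0.07 (SE), adjusted p = 2.32e-05). PIP1;5 fell with a log2 fold change of -0.45 ± 0.09, adjusted p = 7.93e-04 and PIP3 at -0.33 ± 0.07, adjusted p = 0.00117. Of 12 ER chaperone genes, CNX1 (-0.48 ± 0.10, adjusted p = 6.60e-04), BIP1 (-0.38 ± 0.11, adjusted p = 0.0322) and CRT1A (-0.26 ± 0.08, adjusted p = 0.0361) fell; CNX1 and CRT1A did not overlap between the groups, and BIP1 and CRT1A were lost without any 1 of 6 and 11 libraries. BIP1 may share counts with its near-identical copy BIP2.

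The remaining lists held few called genes, where 2.41% of all genes rose and 2.83% fell. ELIP1, an early light-induced protein that binds chlorophyll under stress, rose without overlap from 8.34 ± 3.19 CPM after water to 21.5 ± 4.84 CPM after ethanol (log2 fold change 1.41 ± 0.18 (SE), adjusted p = 1.53e-07). CHLH, a magnesium chelatase subunit of chlorophyll synthesis, fell with a log2 fold change of -0.30 ± 0.06, adjusted p = 0.00144, and the other 10 members of that list were not called. Of 27 photosystem and antenna genes 1 fell, LHCB1.1 (-0.19 ± 0.06, adjusted p = 0.0269), which shares sequence with its LHCB1 copies and was lost without any 1 of 8 libraries. Of 16 tested ABA and dehydration genes, HB12 rose (0.58 ± 0.18, adjusted p = 0.0416, lost without any 1 of 9 libraries) and RD26, a NAC factor, fell (-0.87 ± 0.23, adjusted p = 0.0133). Of 17 aliphatic glucosinolate genes, MAM3 (0.77 ± 0.22, adjusted p = 0.0252) and BCAT4 (0.50 ± 0.15, adjusted p = 0.0423) rose, and the count was 0 to 8 when 1 library was left out. FUL of floral transition rose (0.91 ± 0.28, adjusted p = 0.0431, lost without any 1 of 11 libraries). Of 7 tested guard cell markers, SLAC1 rose (0.80 ± 0.22, adjusted p = 0.0211), while the list median was -0.01 and its lowest value -0.41. Of 8 epidermis markers, PDF1 fell (-0.24 ± 0.07, adjusted p = 0.026), with a list median of -0.09 and a highest value of 0.05. Catalase CAT3, of 13 tested antioxidant genes, rose (0.25 ± 0.08, adjusted p = 0.0456). NYC1 of chlorophyll breakdown, of 9 tested senescence genes, rose (0.24 ± 0.08, adjusted p = 0.048). ADS1, a desaturase, of 14 membrane lipid genes, fell (-0.80 ± 0.21, adjusted p = 0.0119). These were the called members of their lists besides SAG21, and SLAC1, CAT3, NYC1 and PDF1 were lost without any 1 of 3, 9, 12 and 9 libraries. Of 8 reference genes, ACT2 and ACT8 were lower, at -0.22 and -0.23 (adjusted p = 0.0381 and 0.0191), lost without any 1 of 11 and 4 libraries. In 8 lists with 52 tested genes, RAV and TEM factors, heat shock, Calvin cycle, kelch F-box, BTB-TAZ, morning clock, cell division and root markers, edgeR called none. In these lists 8 genes had an unadjusted p under 0.05 and DESeq2 called 1. The kelch F-box list had 4 tested members and did not include AT1G23390. That kelch F-box gene fell (-0.48 ± 0.12, adjusted p = 0.00805).

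The ethanol effect before freezing was larger in its count of genes, with 1664 called (10.0%), 670 higher (4.04%) and 994 lower (6.00%). The unfrozen and frozen comparisons share no library. Of the 400 genes higher after freezing, 50.2% were also higher before, which is 30% of the 670, and of the 470 lower genes 279 were also lower before (59.4% and 28.1%). None changed from lower to higher, and 1 gene, the kelch F-box gene AT1G23390, was higher before and lower after. Across all 16579 genes, which are not independent replicates, Pearson's r of the log2 fold changes was 0.52, as a description. Called before freezing and not after were 1183 genes, and called after and not before were 388. Such a list does not show that the effects differ, which the test of the difference addresses.

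**Figure D4:**
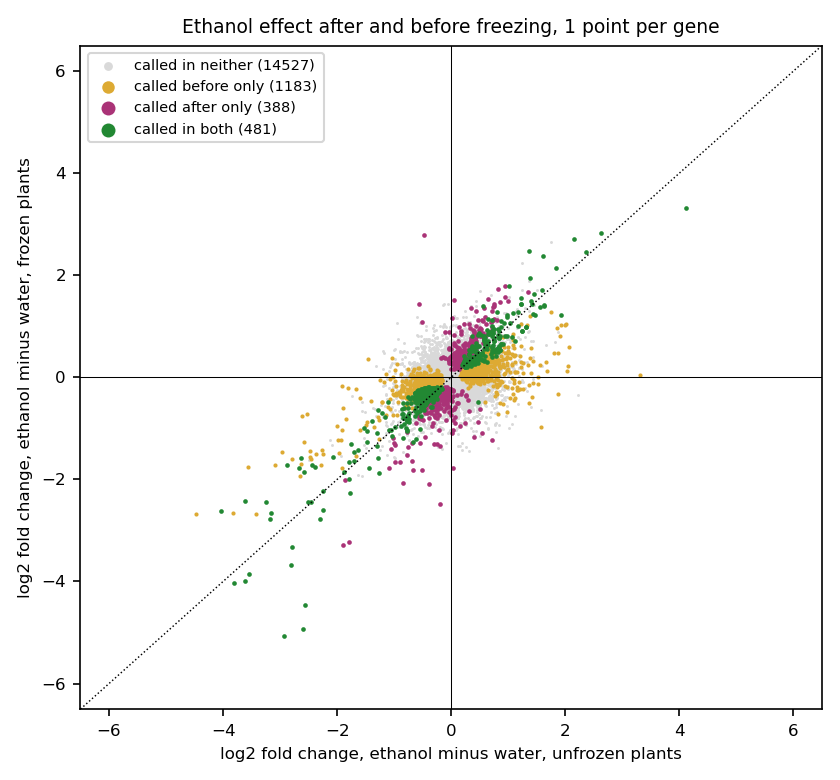
Log2 fold change of ethanol against water in frozen plants (vertical axis) against that in unfrozen plants (horizontal axis), 1 point per tested gene, coloured by where the gene was called; the dotted line marks equal effects. The 481 genes called in both lie in the same quadrants except AT1G23390.

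The lists above compare as follows. The 9 listed CC-type glutaredoxins all fell before freezing (6.00% of all genes did), with a median log2 fold change of -2.60. Outside that list, AT2G47880 (1.39) and AT4G33040 (1.40) rose before freezing too. AHP4 (2.15), SWEET12 (1.18), COR27 (1.47), MEE3 (1.44) and CAX1 (-0.98) had log2 fold changes before freezing of the same sign as after it, all called. Of the flavonoid genes 4, the repressor MYBL2 among them, rose before freezing (4.04% of all genes did), with a median of 0.51. CHS had 0.13 ± 0.12 (SE), adjusted p = 0.581 there. Of the nitrate genes 5 fell (6.00% of all genes did) and 1 rose (4.04%) before freezing, with a median of -0.26. NIA1 had -0.32 ± 0.14 (SE), adjusted p = 0.153 before freezing, and LBD37 had -0.22 ± 0.13 (SE), adjusted p = 0.348. No flavonoid gene was called in the test of the difference, and of the nitrate genes GLU1 was.

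The ethanol effect differed after and before freezing in 22 genes (0.133%) by edgeR, 21 lower after freezing (0.127%) and 1 higher (0.00603%). Of the 22, 19 were called before freezing and 4 after. AT5G21940 was high in unfrozen ethanol plants alone, with 49.5 ± 11.9 CPM in water plants and 133.2 ± 30.9 CPM in ethanol plants before freezing (1.43 ± 0.14 (SE), adjusted p = 2.21e-10). After freezing it had 26.8 ± 4.43 CPM after water and 24.7 ± 5.902 CPM after ethanol (log2 fold change -0.11 ± 0.15, adjusted p = 0.779), and the difference was -1.54 ± 0.20 (SE), adjusted p = 6.69e-06. TEM2, a RAV family repressor of flowering, had 27.8 ± 11.9 CPM in water plants and 71.5 ± 16.3 CPM in ethanol plants before freezing and 21.2 ± 4.61 CPM after water and 18.9 ± 4.93 CPM after ethanol in frozen plants, a difference of -1.53 ± 0.25 (SE), adjusted p = 4.96e-04. KMD1, a kelch F-box protein that marks type-B cytokinin response regulators for breakdown, had a log2 fold change of 1.09 before and -0.34 after, a difference of -1.43 ± 0.22 (SE), adjusted p = 4.47e-04. AT3G10020 had 0.72 before and -0.16 after (-0.89 ± 0.14 (SE), adjusted p = 4.96e-04), and AT3G15450, an aluminum-induced protein gene, had 0.77 and -0.37 (-1.15 ± 0.19 (SE), adjusted p = 6.73e-04). None of these 5 was called after freezing, while all 5 rose before. Of the other 17, chosen after their values were seen, the transcription factors ERF104 (-1.91 ± 0.42 (SE), adjusted p = 0.0341), MYB77 (-1.36 ± 0.25 (SE), adjusted p = 0.00417), MYB73 (-0.96 ± 0.20 (SE), adjusted p = 0.0153) and RAV1 (-0.75 ± 0.16 (SE), adjusted p = 0.0358) also rose before freezing and were not called after it. The zinc finger gene TZF1 was at 0.27 before and -0.38 after (-0.64 ± 0.14 (SE), adjusted p = 0.0422), called after freezing alone. GLU1 was at 0.19 before and -0.28 after (-0.47 ± 0.10 (SE), adjusted p = 0.0153), and AT1G23390 was the gene called in opposite directions (-0.94 ± 0.17 (SE), adjusted p = 0.00142). BTF3, basic transcription factor 3, was the gene with the higher effect after freezing, at -0.49 before and -0.07 after (0.42 ± 0.09 (SE), adjusted p = 0.0401). DESeq2 called 17 genes. Leaving out 1 library moved the edgeR count from 22 to 61 without unfrozen water replicate 6, to 35 without frozen water replicate 4 or frozen ethanol replicate 3, and to 11 without frozen water replicate 6 or unfrozen ethanol replicate 8. It was 12 to 14 without unfrozen water replicate 1, 2, 3 or 5, unfrozen ethanol replicate 4, 6 or 7, frozen water replicate 5 or frozen ethanol replicate 4 or 5.

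**Figure D5:**
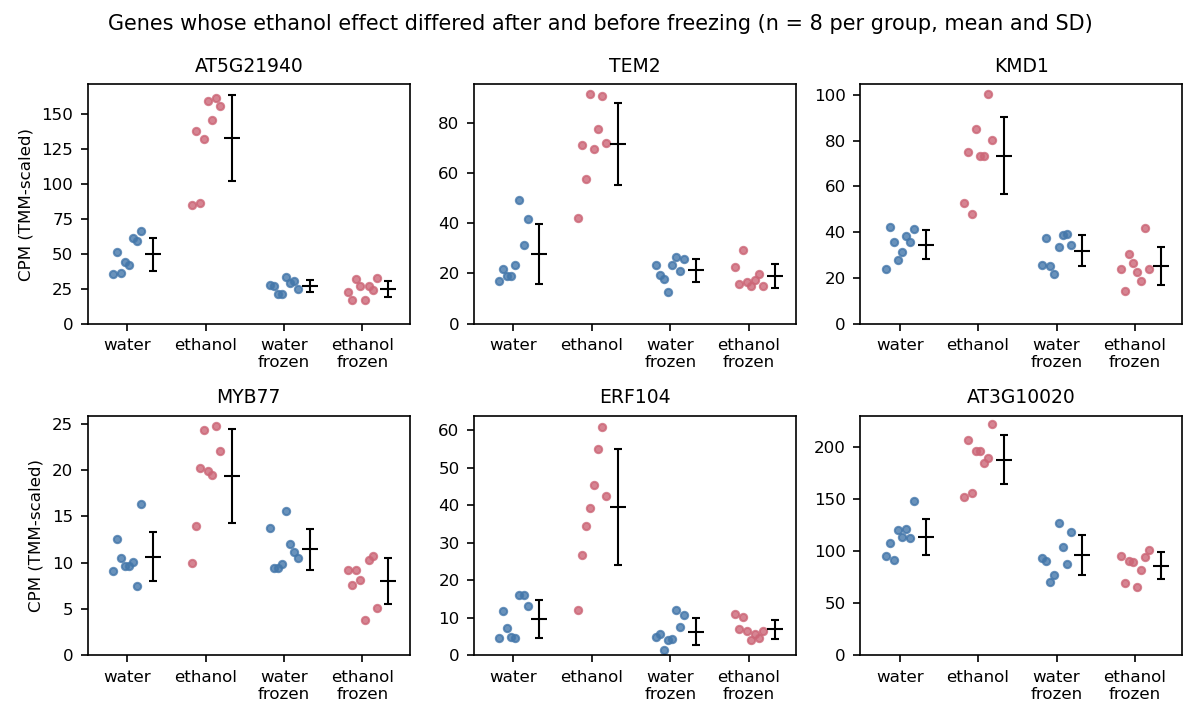
Levels in CPM (linear axis from 0) of 6 genes called for the difference of the ethanol effects, 1 point per library in the 4 pretreated groups, with the mean and SD beside them. In each panel the unfrozen ethanol libraries have the highest mean of the 4 groups, and the 2 frozen groups overlap.

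Of 11 tested ERF factors of ethylene and stress responses, 7 rose before freezing (4.04% of all genes did) and none fell, with ERF104 at 2.02 and ERF6 at 2.06. After freezing none of the 11 rose and 2 fell (2.83% of all genes did), ERF1A (-1.09 ± 0.32, adjusted p = 0.0338) and ORA59 (-1.23 ± 0.37, adjusted p = 0.0346), each lost without any 1 of 9 libraries. ERF104 was among the 22 genes of the difference, and the other ERF genes were not called there. Of 4 RAV and TEM genes, 3 rose before freezing, and 2 of them, RAV1 and TEM2, were called for the difference. Of 4 subgroup 22 MYBs, 2 rose before freezing, while MYB44 fell after it (-0.34 ± 0.11, adjusted p = 0.0474, lost without any 1 of 12 libraries). Of 6 tandem zinc finger genes, TZF2 (0.56 ± 0.15, adjusted p = 0.013) and TZF3 (0.42 ± 0.12, adjusted p = 0.0251) rose in frozen plants and TZF1 fell (-0.38 ± 0.10, adjusted p = 0.0185). TZF2 was lost without ethanol replicate 2, TZF3 without water replicate 4 or ethanol replicate 6, and TZF1 without water replicate 1 or 5 or ethanol replicate 1.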

How the data were processed

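Gene expression was measured in 40 shoot libraries, grouped by their titles; the contrast of both frozen groups used 8 libraries a side. The deposited counts are whole reads per gene that the authors did not normalize. Per the submitters' processing notes, HISAT2, featureCounts, DESeq2, Trimmomatic and bcl2fastq are named, with build TAIR10. No source used here states versions, strand or the handling of reads with several matches, so near-identical copies and overlapping genes are uncertain. A second deposited table of normalized values was not used.

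The tests used edgeR 4.0.16 (R 4.3.3): filterByExpr, TMM, group means of all 40 libraries in 1 model, quasi-likelihood F test, p-values adjusted by Benjamini-Hochberg over all genes. A gene is called where that value is under 0.05. SE is the absolute log2 fold change over the square root of F. CPM are TMM-scaled. A call "lost without any 1 of" a number of libraries ended in each fit that left out 1 of those frozen libraries. The members and the 42 lists (495 genes) were chosen with earlier results of these data known. Named genes were, of called nuclear genes averaging 10 CPM or more in the higher frozen group, the 12 that rose most and the 12 that fell most, up to 3 called members per list by smallest p, the 5 genes of smallest p for the difference with 10 CPM or more in a group, and ADH1, CBF1 to CBF3, COR15A and RD29A; others were named after their values were seen. Symbols and upstream sequence came from RefSeq TAIR10.1, which matched 26719 identifiers; identity used Biopython 1.88.

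Replicates differed by more than sampling noise, and each counted as 1 sample. The scripts were tested on simulated data. There, 44.9% of genes changed 1.5-fold and 81.8% of genes changed 2-fold were called, with 10 false calls among 16408 genes. A gene that was not called may therefore still differ. Floors cover counting error only. The SD is the spread among libraries, and the SE comes from the fit, which includes that spread. Alternatives were DESeq2 size factors, no filter, DESeq2 1.42.0, only the groups compared, a replicate block, thinning, organelle genes left out, the transcript length trend removed, a test against a fold change of 1.5, and each library left out; leaving out frozen water replicate 7 together with frozen ethanol replicate 8 was chosen after seeing the data.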

Additional observations from a re-analysis of the deposited data

Results flagged for a closer look

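Of 282 groups of 8 libraries checked, 31 held 1 library far from the others by Dixon's ratio. Chance flags about 1 group in 20 where values are normally distributed. The groups checked share libraries, and many genes were named for their values, so that rate may not hold here. Frozen ethanol replicate 8 was far above its group for AT5G03350 (123.5 CPM), ARD3 (10.6 CPM), AT3G22235 (158.7 CPM), PCC1 (507.8 CPM), PR2 (17.5 CPM), PR1 (30.5 CPM), WRKY54 (27.4 CPM) and BIP1 (121.7 CPM), and its transcript length slope of 0.236 lay above the 0.0805 to 0.14 of the other 7. Frozen water replicate 6 was far above its group for CBF2 (12.2 CPM), ARD3 (36.3 CPM), PR2 (112.1 CPM), PR1 (160.1 CPM) and ERF6 (5.28 CPM). Frozen ethanol replicate 2 was high for AHP4 (22.1 CPM), COR27 (22 CPM), COR15A (1968 CPM), AT4G14090 (18.4 CPM) and COR15B (1356 CPM). Frozen ethanol replicate 3 was high for CBF2 (85.9 CPM), CBF1 (40.1 CPM) and ERF6 (9.55 CPM). Frozen ethanol replicate 4 was high for AT4G15660 (1.4 CPM) and TPS11 (20.6 CPM), and frozen ethanol replicate 1 was low for CNX1 (92 CPM, others 102.9 to 108.2). Frozen water replicate 3 was high for VSP2 (65.8 CPM), PPC2 (214.8 CPM) and NIA1 (37.9 CPM), replicate 4 high for AT4G15670 (5.88 CPM), replicate 5 low for LBD38 (10.7 CPM) and replicate 1 low for PP2-A1 (106.1 CPM).

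The ethanol effect after freezing differed from that before freezing by the interaction test in 13 named genes. On the log2 scale the difference, after minus before, was -1.54 for AT5G21940, -1.53 for TEM2, -0.89 for AT3G10020, -1.42 for KMD1, -1.15 for AT3G15450, -1.91 for ERF104, -0.75 for RAV1, -0.96 for MYB73, -0.47 for GLU1, -1.36 for MYB77, -0.64 for TZF1, -0.94 for AT1G23390 and 0.42 for BTF3.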

How the results depend on the processing

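The 400 higher and 470 lower genes became 336 to 447 and 402 to 506 under DESeq2 size factors, no filter, DESeq2, only the groups compared, the replicate block, no organelle genes and the length trend removed. Thinning to the smallest library gave 159 and 197, and testing against a fold change of 1.5 gave 17 and 17. With 1 frozen library left out the counts were 274 to 551 and 282 to 538, and without both frozen water replicate 7 and frozen ethanol replicate 8, chosen after seeing the data, 520 and 490. Before freezing, 1664 genes became 852 when thinned, 55 against a fold of 1.5 and 1407 to 1703 with 1 library out. The 22 genes of the difference became 41 with no filter, 36 with the replicate block, 10 when thinned, 1 against a fold of 1.5 and 11 to 61 with 1 library out; DESeq2 called 17. The cause was not tested.

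Replicate numbers did not pair the frozen groups, with correlations of -0.0623 to 0.0634 and 0 of 8 libraries closest to their own number. Between the unfrozen groups the correlations were -0.0195 to 0.0539, and 4 of 8 libraries were closest to their own number. The replicate block called 411 higher and 506 lower genes after freezing. Of 123 called genes named, none reversed; 50 lost the call when thinned, 102 against a fold of 1.5 and 3 to 34 with 1 library out. Genes not called after freezing changed sign for AT5G21940 when thinned (0.081), RAV1 when thinned (0.111) or without frozen water replicate 6 (-0.108 to 0.022 with 1 library out), and ERF104 without frozen water replicate 3 (-0.018 to 0.339 with 1 library out). At these depths, genes near 1 CPM rest on a few counts.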
